A study of Mus musculus with 2 samples.

Results

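The genes described here belong to 9 families of transcription factors that set cell lineage: T-box, MYB, KLF, GATA, RUNX, ETS, SOX, AP-2 and Grainyhead-like factors. Members were chosen by gene symbol alone, from probe sets annotated to a single gene, and 119 probe sets of 69 genes met the rule, out of 22223 such probe sets of 13869 genes in the value table. A further 2 probe sets that are annotated to several genes, a member among them, were left out. For a gene with several probe sets, the 1 with the highest mean log2 signal stood for it.

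Lineage factors bind short DNA motifs and switch gene programs on or off, and members of a family share the DNA-binding domain and often much of the motif. In the mammary gland, GATA3 maintains the luminal lineage, ELF5 directs alveolar cells, and TBX3 is needed for the first mammary buds of the embryo. KLF4, SOX9, RUNX1, the AP-2 factors and GRHL2 are also known from mammary or other epithelia, whereas many T-box, SOX and GATA members are known mainly from heart, mesoderm, nerve or blood.

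Cells came from 3 pooled adult virgin Tbx3+/Venus females (FVB background, 5 months of age), which carry Venus, a yellow fluorescent protein, in place of 1 Tbx3 allele, so that both populations are heterozygous for Tbx3. Luminal cells, gated on CD24 and CD49f after CD45+ and stromal cells were removed, were sorted into a Venus High population, with high activity of the Tbx3 locus, and a Venus Low population, with low or no Venus, of 200000 cells each. RNA of each population was hybridized to 1 Affymetrix mouse whole-genome array, so there are no replicates, no p-values and no check of any difference below against the spread between mice. Since these are RNA pools of sorted cells, fewer cells of a kind and less RNA per cell cannot be told apart.

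The table holds log2 signals with a floor at 3.32, which is a signal of 10. Of its 29338 probe sets, 12968 were higher in Venus High cells, 0 were lower in Venus High cells and 16370 stayed at the floor for both populations, so that factors with more signal in Venus Low are not analysed here and a positive sign carries no information. Size does, and it is read against the table: the 3847 genes that reached a signal of 100 on at least 1 array had a median log2 difference (Venus High minus Venus Low) of 0.46, with quartiles of 0.21 and 0.91. Luminal identity showed in both populations: of 10 luminal markers, 4 were in the table, and all 4 reached 100 on both arrays. Their log2 differences ran from 0.09 to 0.98. Krt8, a keratin of luminal cells, had the smallest, with log2 signals of 13.22 for Venus High and 13.13 for Venus Low. Krt19 had the largest, with 12.94 for Venus High and 11.96 for Venus Low. Krt18, Epcam, Muc1, Cldn3, Cldn4 and Cldn7 are not analysed here. No signal above the floor was seen on either array for the 7 basal and 7 leukocyte markers in the table, Krt14, Trp63 and Ptprc among them, while the alveolar progenitor markers are not analysed here. The table holds 6 stromal markers, of which 3 were above the floor, and the 6 signals added up to 120.0 in Venus High cells against 82.5 in Venus Low cells. Of 9 hormone-sensing markers, 6 were in the table, and Prlr, Ly6a and Areg are not analysed here. All 6 differed by 4-fold or more with the floor of 10, as did 8.58% of the genes that reached 100. Pgr, Prom1, Cited1 and Wnt4 reached 100 in Venus High cells alone and so had to differ. Esr1 and Foxa1 reached 100 on both arrays. The signals of the 6 added up to 15765 in Venus High cells against 529 in Venus Low cells.

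A minority of the factors in the table, as of all its genes, reached a signal of 100. Most of those that did had similar signals in Venus High and Venus Low cells. Of the 69 members, 39 did not leave the floor on either array, 16 lay above the floor but under a signal of 100, and 14 reached 100. Of all 13869 genes in the table, 3847 reached 100. A further 22 symbols that fit the rule have no probe set in the table. Since the table holds no probe set lower in Venus High cells, a gene at the floor is so only on its probe sets there. Of the 39, 27 have 1 such probe set, and absence of their RNA is not shown. Among the 14, only Tbx3, Myb and Klf2 were higher in Venus High cells by 4-fold or more. On the probe sets chosen, the other 11 differed by less than 2-fold, as did 3016 of the 3847 genes of the table that reached 100. The 3 genes are 4.35% of the 69 members, against 330 genes or 2.38% of all genes in the table. Among the genes that reached 100 they are 21.4% of 14 members, against 8.58% of all 3847 genes. Tbx3 and Myb, however, reached 100 in Venus High cells alone and had to differ to be counted, and Tbx3 activity defined the sort. Of the 12 members that reached 100 on both arrays, 1 was at least 4-fold higher (8.33%), against 2.6% of the 3034 such genes in the table, and their median difference was 0.33, against 0.38 for all of those genes. Over all 14 the median was 0.42, close to the 0.46 of the table.

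**Figure D1:**
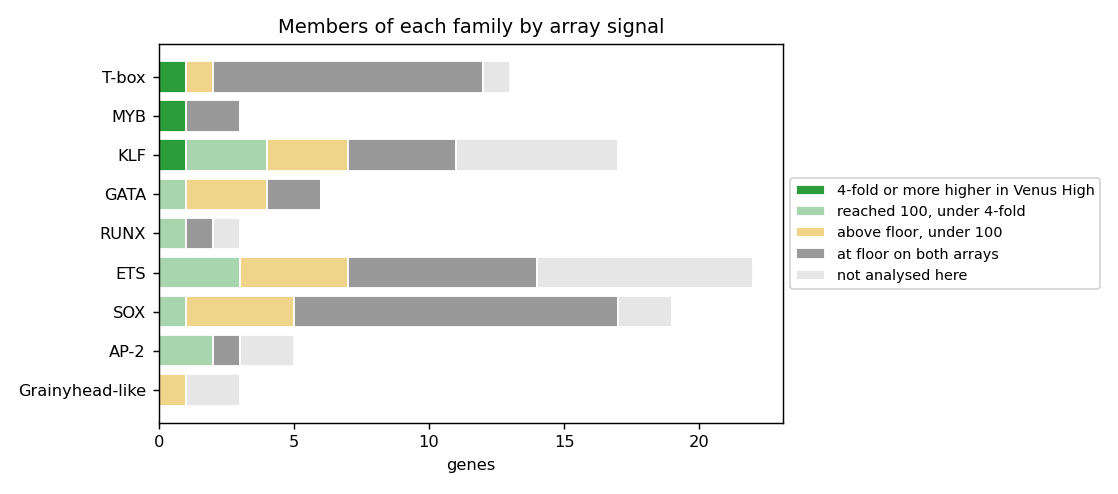
Number of genes of each family (horizontal axis), by array signal, with 1 array per population; genes of the family in the RefSeq table that have no probe set in the value table are shown as not analysed here. At least 4-fold higher genes appear once each in the T-box, MYB and KLF rows, and the T-box and SOX rows are mostly grey, with 10 and 12 genes at the floor on both arrays.

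**Figure D2:**
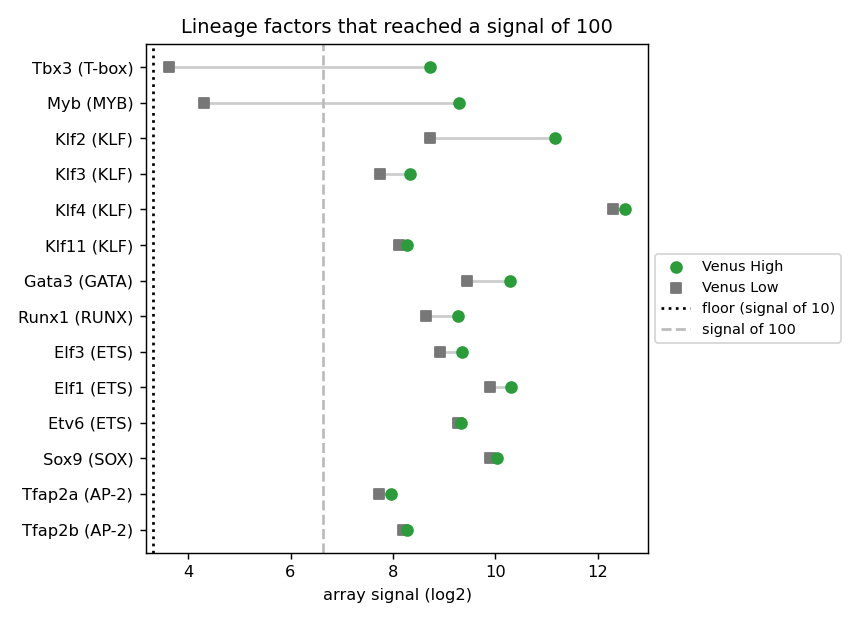
Array signal (log2, horizontal axis) of the 14 members that reached a signal of 100, in Venus High cells (green circles) and Venus Low cells (grey squares), 1 array each. The 2 symbols lie far apart for Tbx3, Myb and Klf2 and within 0.84 log2 units of each other for the other 11 genes.

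Tbx3 was the only T-box gene of 12 in the table that reached 100, and 10 of its relatives were at the floor. On its brightest probe set Tbx3, which encodes a T-box repressor, had 8.72 in Venus High cells, against 3.62 in Venus Low cells, or linear signals of 421 for Venus High and 12.3 for Venus Low, a 34.3-fold difference. A second probe set gave 8.04 in Venus High and 3.93 in Venus Low. The other 3 probe sets of Tbx3 were at the floor on both arrays. Because both Venus Low values lie just above the floor, the size depends on it. With the floor raised to 100 the difference of the brighter probe set was 2.08 in place of 5.10. That of the second probe set was 1.40 in place of 4.11, under 4-fold. The sort was made on the reporter in this locus, so the difference checks the sort and is not a finding about the family.

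The other 11 T-box genes in the table did not reach 100. Tbx2, the closest relative of Tbx3 and a repressor too, was at the floor on both arrays, as were Tbx1, Tbx4, Tbx5, Tbx15, Tbx18, Tbx19, Tbx20, Tbx21 and Tbx22, which act in pharynx, limb, heart, pituitary, T cells or other tissues. Tbx6, a regulator of mesoderm, had 4.08 in Venus High and 3.72 in Venus Low, near the floor. Tbx10 is not analysed here.

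Myb stood out among the members that the sort did not use. MYB is a transcription factor of blood progenitors that also responds to estrogen in breast cancer cells. The log2 signals of its 3 probe sets were 9.29, 8.74 and 6.87 in Venus High cells, against 4.32, 4.16 and the floor in Venus Low cells. The populations were thus separated on all 3, by 4.98, 4.58 and at least 3.55 on the log2 scale, and the first is a 31.5-fold difference. As for Tbx3, the floor bears on the size, and at a floor of 100 the differences were 2.65, 2.09 and 0.23, the last under 4-fold. All 3 probe sets carry an Affymetrix suffix for probes shared between transcripts (_a_at) or open to cross-hybridization (_x_at), so without such probe sets Myb had no value.

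The 2 relatives of Myb stayed at the floor in both populations: Mybl2, which is induced in dividing cells, and Mybl1, known from meiosis. Ptprc, which encodes the pan-leukocyte antigen CD45, was at the floor on both arrays, and so were the other 6 leukocyte markers in the table. Of 5 genes listed as known MYB targets only Ccne1, the cyclin E1 gene, was in the table, with 4.72 in Venus High and 3.98 in Venus Low, under a signal of 100.

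**Figure D3:**
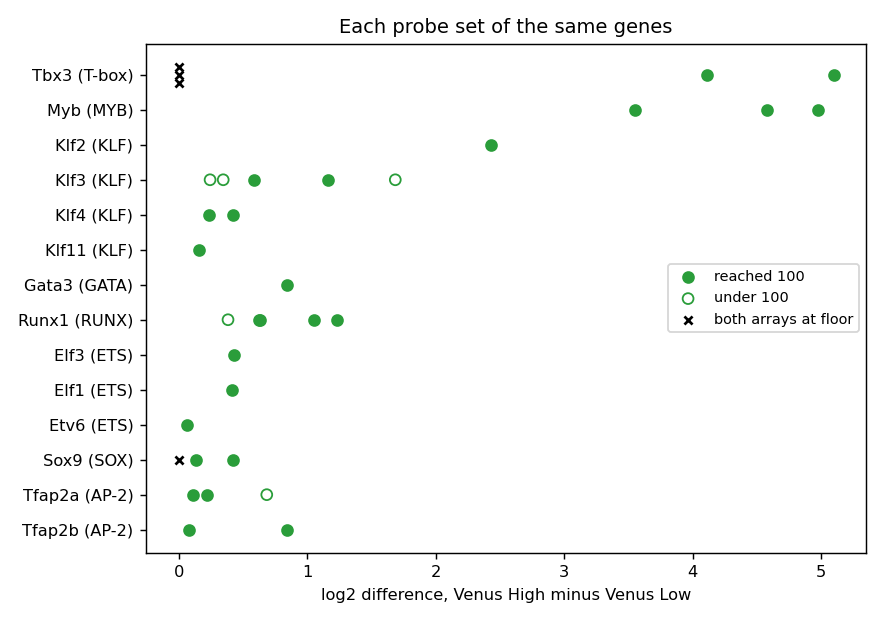
Log2 difference (Venus High minus Venus Low, horizontal axis) of each probe set of the 14 genes that reached a signal of 100; filled circles reached 100, open circles did not, and crosses were at the floor on both arrays. All 3 Myb probe sets lie above 3.5, Tbx3 has 2 above 4 and 3 crosses at 0, and Klf2 has 1 probe set.

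Klf2 completed the trio and was the only gene of it with a high signal in both populations. It encodes a zinc finger factor known for quiescence of T cells and for the response of endothelium to flow. Its single probe set had 11.16 in Venus High cells, against 8.73 in Venus Low cells, or linear signals of 2285 for Venus High and 425 for Venus Low, a 5.38-fold difference. The floor plays no part here, and the log2 difference stayed at 2.43 with the floor at 100. The scaling of the arrays does matter, since the difference was 1.77 after median centring and 1.74 after quantile normalization, both short of 4-fold. Of the 6 endothelial markers, 3 were in the table: Cdh5 and Tek stayed at the floor, and Kdr had 3.78 in Venus High cells and was at the floor in Venus Low cells, and the 3 signals added up to 33.7 for Venus High and 30.0 for Venus Low cells. Pecam1, Emcn and Esam are not analysed here, and a part of endothelial RNA in the Klf2 difference was not tested.

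The other 3 KLF genes that reached 100 differed by less than 2-fold on their brightest probe sets. Klf4, a factor of epithelial differentiation and of reprogramming to pluripotency, had 12.54 in Venus High and 12.30 in Venus Low, while its second probe set gave 11.72 for Venus High and 11.29 for Venus Low. Klf11, a repressor induced by TGF-beta, had 8.27 in Venus High and 8.11 in Venus Low. Klf3, which represses through CtBP, had 8.34 in Venus High and 7.75 in Venus Low, and its 5 probe sets differed by 0.24 to 1.69. A second Klf3 probe set that reached 100 had 7.37 in Venus High and 6.20 in Venus Low, a difference of 1.17, and the widest gap was on a dimmer one, with 5.07 in Venus High and 3.38 in Venus Low. On the brightest probe sets, Klf2 thus differed by 2.43 and the others by 0.16 to 0.59.

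Of the dimmer KLF genes, Klf14, an imprinted gene, had 4.40 in Venus High and 3.96 in Venus Low. Klf1, the erythroid member, had 3.70 in Venus High and 3.33 in Venus Low. Klf9, a hormone-responsive member, had 4.91 in Venus High and 4.88 in Venus Low. Klf12, Klf13, Klf15 and Klf17 stayed at the floor, and Klf5, Klf6, Klf7, Klf8, Klf10 and Klf16 are not analysed here, so no statement on the family as a whole can be made. Of 3 genes listed as KLF or SP targets, Krt13 did not leave the floor, Krt4, another keratin gene, had 10.05 in Venus High and 4.23 in Venus Low, a log2 difference of 5.81 (3.40 with the floor at 100), and Cdkn1a, the p21 gene, had 9.77 in Venus High and 9.63 in Venus Low.

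The 4 KLF genes that reached 100, Klf2, Klf3, Klf4 and Klf11, shared a sequence feature. It was found in a search for several motifs that were chosen with earlier results of these data known. KLF proteins bind GC-rich boxes, and GGGGCGGGG, sought on both strands in the window from 250 bases before to 50 after each RefSeq start, was in the windows of all 4, and in those of none of the other 8 members that reached 100 and have a RefSeq entry. Tbx3 and Sox9 were not searched. It was in 16 of 66 windows (24.2%) of the 51 members with an entry and in 11.4% of all 32851 windows. These 4 promoters are also rich in G and C, at 71.2% to 78.4% of the 250 bases before the start, where the median of all windows was 52.4%. That is not particular to them: the windows of the other 8 members ran from 43.2% for 1 of Elf1 to 81.2% for Myb, with 70% for Gata3. The promoters of Klf2, with a log2 difference of 2.43, and of Klf4, with 0.24 on its brightest probe set, are shown for comparison, before the start site only, 5′ to 3′ (RefSeq, GRCm38.p6, Klf2 at chr8:72318812-72319061, plus strand, Klf4 at chr4:55532476-55532725, minus strand). Capitals mark GGGGCGGGG on either strand and, in the last bases of Klf4, the AP-2 motif GCCNNNGGC.
Klf2: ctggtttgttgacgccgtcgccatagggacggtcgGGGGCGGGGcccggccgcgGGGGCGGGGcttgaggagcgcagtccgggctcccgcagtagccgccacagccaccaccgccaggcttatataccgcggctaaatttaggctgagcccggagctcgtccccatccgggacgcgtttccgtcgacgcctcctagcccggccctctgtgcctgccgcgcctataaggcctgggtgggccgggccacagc
Klf4: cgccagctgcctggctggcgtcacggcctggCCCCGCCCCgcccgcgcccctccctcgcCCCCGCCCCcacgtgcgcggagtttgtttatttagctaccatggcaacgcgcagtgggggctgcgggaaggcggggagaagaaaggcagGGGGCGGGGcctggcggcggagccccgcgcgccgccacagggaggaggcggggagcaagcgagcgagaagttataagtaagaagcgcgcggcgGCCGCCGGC
Klf2 holds 2 such boxes and Klf4 holds 3. A match is a description of letters in the window, and binding was not measured.

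Of the 11 members that reached 100 and were under 4-fold, Gata3 had the largest difference on the probe sets chosen here. Other probe sets that reached 100 differed more, by 1.06 and 1.23 for Runx1, 1.17 for Klf3 and 0.85 for Tfap2b. GATA3, the zinc finger factor that maintains luminal cells, had 10.28 in Venus High and 9.44 in Venus Low on its single probe set, or linear signals of 1244 for Venus High and 694 for Venus Low, a 1.79-fold difference. Its log2 difference of 0.84 is larger than that of 72.6% of the genes that reached 100. It was 0.18 after median centring and 0.15 after quantile normalization. Of 4 genes listed as known GATA3 targets, 2 were in the table and both differed more than Gata3. Esr1, the estrogen receptor alpha gene, had 10.62 in Venus High and 7.64 in Venus Low. Foxa1, a pioneer factor for that receptor, had 11.81 in Venus High and 7.76 in Venus Low. The other listed targets, Muc1 and Krt18, are not analysed here.

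The rest of the GATA family was at or next to the floor on the probe sets in the table. In Venus High cells Gata1, an erythroid factor, and Gata4 and Gata5, of heart and endoderm, had 3.40, 3.41 and 3.42, next to the floor, where they were in Venus Low cells, and Gata2 and Gata6, factors of blood and endoderm, were at the floor on both arrays. Of 6 GATA cofactors, 4 were in the table, and Ldb1, an adaptor of GATA complexes, alone reached 100, with 7.36 in Venus High and 7.08 in Venus Low.

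The promoter of Gata3 and that of Myb are shown because these are the GATA and MYB genes that reached 100, in the same layout (chr2:9878601-9878850, minus strand, and chr10:21160985-21161234, minus strand, GRCm38.p6). Capitals in Gata3 mark the AP-2 motif GCCNNNGGC, whose reverse complement has the same letters, and none of the motifs searched is in the bases shown for Myb.
Gata3: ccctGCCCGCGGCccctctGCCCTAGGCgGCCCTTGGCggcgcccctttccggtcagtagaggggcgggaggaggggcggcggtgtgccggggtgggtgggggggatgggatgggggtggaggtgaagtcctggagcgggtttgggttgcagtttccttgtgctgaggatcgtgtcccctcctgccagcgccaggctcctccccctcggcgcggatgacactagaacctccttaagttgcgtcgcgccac
Myb: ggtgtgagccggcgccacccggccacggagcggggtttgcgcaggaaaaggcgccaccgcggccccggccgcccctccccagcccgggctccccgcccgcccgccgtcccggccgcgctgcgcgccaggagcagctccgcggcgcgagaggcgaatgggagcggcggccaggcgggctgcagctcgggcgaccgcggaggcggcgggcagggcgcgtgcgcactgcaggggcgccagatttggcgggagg
The AP-2 motif occurred 3 times in Gata3. It was in 5 of 15 windows (33.3%) of the members that reached 100, of which 12 genes had an entry, and in 16.6% of all windows. The windows of these 12 genes held 0 matches to AGATAA for GATA (11.2% of all windows), CCGGAAG for ETS (8.86%), CCACACCC for KLF (3.56%), AACAAT for SOX (10.7%), AGGTGTGA for T-box (1.28%), AACCGGTT for Grainyhead-like (0.146%) and AACGG for MYB (17.4%). TGTGGT for RUNX was in 1 window, of Runx1 itself (16.8% of all windows), and the nuclear receptor half-site AGGTCA in 2, both of Elf1 (16.3%). No matches of different motifs overlapped in these windows. Promoters of Tbx3 and Sox9 are not shown.

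Runx1 was measured above the floor by 5 probe sets, whose common sign the table fixes. RUNX1, a runt domain factor of blood formation that also acts in luminal mammary cells, gave 9.28, 8.17, 8.05, 7.96 and 5.39 (log2) in Venus High cells, against 8.64, 7.55, 6.99, 6.73 and 5.01 in Venus Low cells. The differences ran from 0.38 to 1.23, and the brightest probe set gave 0.64, larger than 62.4% of the genes that reached 100, or -0.02 after median centring. Cbfb, the common partner of the RUNX factors, had 9.22 in Venus High and 9.04 in Venus Low. Runx3 was at the floor on both arrays, and Runx2 is not analysed here.

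Of the ETS factors, 3 of the 14 in the table reached 100, with small differences. Elf3, an epithelial ETS factor, had 9.34 in Venus High and 8.91 in Venus Low. Elf1, a widely expressed activator, had 10.30 in Venus High and 9.89 in Venus Low. Etv6, a repressor of the family, had 9.34 in Venus High and 9.27 in Venus Low, and its difference of 0.06 was the smallest of the 14 members. All 3 were below the table's median difference of 0.46 and negative after either scaling.

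A pair of dim ETS genes differed more, although both lay below the signal minimum. Etv4, of the group of ETS factors that act downstream of FGF, was at 5.39 in Venus High cells and at the floor in Venus Low cells. Spdef, a factor of secretory epithelia, was at 5.40 in Venus High cells and at the floor in Venus Low cells. These are at least 4.19-fold and at least 4.21-fold differences, of signals of 41.9 and 42.1 in Venus High cells against the floor of 10. A floor at 100 leaves a difference of 0 for both. A second Etv4 probe set had 3.70 in Venus High cells and was at the floor in Venus Low cells, a difference of at least 1.30-fold. Elk1, which responds to MAP kinases, had 4.36 in Venus High and 4.02 in Venus Low. Elk3, a relative of Elk1, had 5.56 in Venus High and 5.49 in Venus Low. On the probe sets in the table, Ehf, Elf4, Elk4, Erf, Erg, Etv3 and Fli1 were at the floor in both populations. For Ehf that is 1 probe set, with the suffix _x_at. Erg and Fli1 are known from endothelium and blood. Elf5, the alveolar factor, and Elf2, Ets1, Ets2, Etv1, Etv2, Etv5 and Gabpa are not analysed here.

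Sox9 was the only SOX gene of 17 in the table that reached 100. SOX9, known from cartilage and from luminal progenitors, had 10.03 in Venus High and 9.90 in Venus Low on the brightest probe set, then 9.51 in Venus High and 9.09 in Venus Low on the second, while the remaining probe set stayed at the floor. The 2 differences, 0.13 and 0.42, are both below the table's median. Sox12 lay under the signal minimum, with 6.06 in Venus High and 4.68 in Venus Low. These are signals of 66.7 for Venus High and 25.7 for Venus Low, a 2.59-fold difference that a floor at 100 removes. Sox15, known from muscle progenitors, had 4.24 in Venus High and 3.77 in Venus Low, and Sox7, an endothelial factor, had 4.21 in Venus High and 3.92 in Venus Low. Of the relatives of Sox12, which share its group, Sox4 had 4.55 in Venus High and 4.37 in Venus Low and Sox11 was at the floor on both arrays. In all, 12 SOX genes stayed at the floor, among them Sox2, a factor of stem cells, Sox10, of neural crest, and Sox17 and Sox18, of endothelium. The others at the floor were Sox1, Sox3, Sox5, Sox8, Sox14, Sox21 and Sox30, next to Sox11. Sox6 and Sox13 are not analysed here.

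Tfap2a and Tfap2b, AP-2 factors known from skin and neural crest, reached 100 on both arrays, with small differences on the probe sets chosen here. Tfap2a had 7.96 in Venus High and 7.73 in Venus Low on the brightest probe set, then 7.46 in Venus High and 7.35 in Venus Low on the next. Tfap2b had 8.27 in Venus High and 8.20 in Venus Low for the probe set chosen here, but 8.41 in Venus High and 7.56 in Venus Low on the other, so its difference was 0.08 or 0.85 depending on the probe set. For scale, the SD of the difference among a gene's probe sets was 0.31, pooled over 1062 genes of the table, and 0.46 over 8 members. Tfap2d did not leave the floor, and Tfap2c and Tfap2e are not analysed here. Of 5 listed AP-2 partners, Cited1, a co-activator for AP-2 and for the estrogen receptor, was at 11.28 in Venus High cells and at the floor in Venus Low cells (a log2 difference of at least 7.95, or 4.63 with the floor at 100), whereas Cited4, a relative of it, had 5.78 in Venus High and 5.24 in Venus Low, under a signal of 100. Cited2, Kctd1 and Kctd15 are not analysed here.

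Grhl2, a Grainyhead-like factor that keeps epithelial junction genes on, did not reach 100. It had 5.97 in Venus High and 5.17 in Venus Low, or signals of 62.5 for Venus High and 36.1 for Venus Low, and its other probe set showed no signal above the floor. Of 5 genes known as targets of GRHL2, 3 were in the table and all reached 100, with little difference in 2 of them: Cdh1, the E-cadherin gene, had 12.03 in Venus High and 11.84 in Venus Low, and Rab25, a small GTPase of epithelia, had 9.43 in Venus High and 9.34 in Venus Low. Esrp2, a splicing factor of epithelia, had 8.78 in Venus High and 7.72 in Venus Low. Grhl1 and Grhl3 are not analysed here. Among the more distant relatives, Tfcp2l1 had 7.33 in Venus High and 6.51 in Venus Low and Ubp1 had 9.78 in Venus High and 9.54 in Venus Low.

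**Figure D4:**
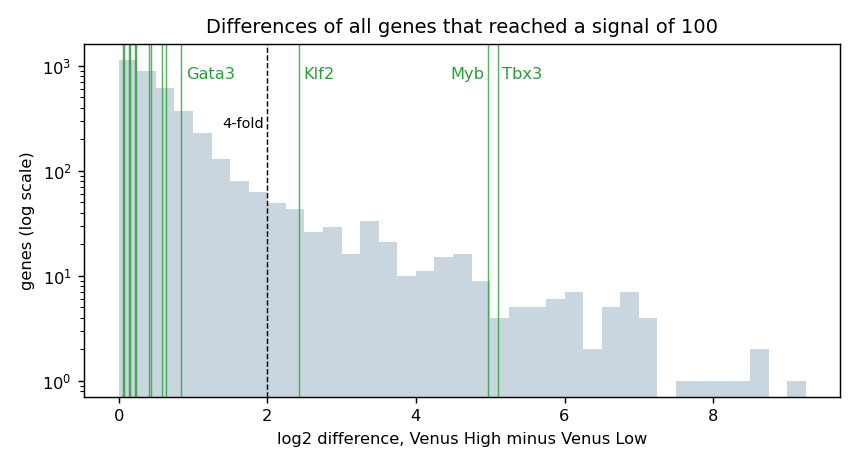
Number of genes (vertical axis, log scale) by log2 difference, Venus High minus Venus Low (horizontal axis, bins of 0.25), for the 3847 genes that reached a signal of 100; green lines mark the 14 lineage factors and the dashed line marks 4-fold. Gata3 and the 10 lines to its left lie in the bulk of the genes, and Klf2, Myb and Tbx3 lie in the tail.

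Seen across families, the 14 genes can be placed by the share of genes with a smaller difference. Tbx3 and Myb exceeded 98.7% and 98.6% of the genes that reached 100, and Klf2 exceeded 93.5%. Gata3, Runx1 and Klf3 lay between 58.9% and 72.6%. The remaining 8, Elf1, Elf3, Klf4, Tfap2a, Klf11, Sox9, Tfap2b and Etv6, lay between 7.72% and 47.2%. With the floor at 100 the log2 differences were 2.65 for Myb, 2.43 for Klf2 and 2.08 for Tbx3, so the order of these 3 rests on the floor, and the ranks of Tbx3 and Myb, with Venus Low signals next to it, hold for the floor of 10 alone. Of 8 regulators listed for hormone-sensing cells, 6 were in the table, 5 reached 100 and all 5, Esr1, Pgr, Foxa1, Msx2 and Cited1, differed by 4-fold or more. Of these, Pgr, Msx2 and Cited1 reached 100 in Venus High cells alone and had to differ to be counted, and with the floor at 100 the log2 difference of Msx2 was 1.37, under 4-fold. Esr1 and Foxa1 reached 100 on both arrays. Of 6 regulators listed for alveolar cells, 2 were in the table and Stat5a reached 100, with 9.34 in Venus High and 8.30 in Venus Low. General co-factors spanned a range, with 8.97 in Venus High and 8.50 in Venus Low for Ep300, a histone acetyltransferase, then 7.26 in Venus High and 7.20 in Venus Low for Tle1, a co-repressor. Tle5, a short relative of Tle1, had 6.85 in Venus High and 5.74 in Venus Low.

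**Figure D5:**
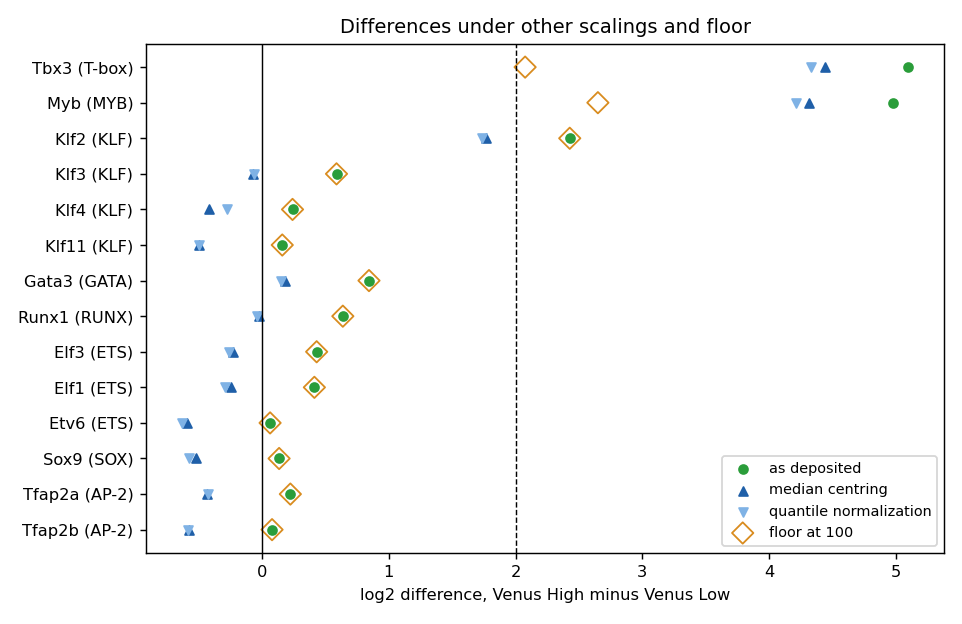
Log2 difference (Venus High minus Venus Low, horizontal axis) of the 14 genes as deposited (green circles), after median centring (dark blue triangles), after quantile normalization (light blue triangles) and with the floor at 100 (open orange diamonds); the solid line marks 0 and the dashed line 4-fold. Under both scalings 10 genes lie left of 0 and Klf2 lies left of the dashed line, while the floor moves Tbx3 and Myb alone.

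The sign of a small difference depends on the scale set between the arrays. The median log2 signal of the 5889 probe sets that reached 100 came to 8.21 in Venus High and 7.55 in Venus Low, so median centring lowers each difference by 0.66, in a table with 0 probe sets lower in Venus High cells. After it 10 of the 14 members had negative differences, Gata3, Klf2, Myb and Tbx3 being the exceptions, and the same 10 were negative after quantile normalization. That count follows from the shift and is no finding about these genes, since the median difference of all genes that reached 100 was then -0.20 too. The arrays do not give a direction for the 10 genes, whose differences on the chosen probe sets were 0.06 to 0.64 as deposited. Nor do they give one for Gata3, at 0.18 and 0.15 after the scalings, under the SD of 0.31 between probe sets. Other probe sets of Runx1, Klf3 and Tfap2b that reached 100 differed by more than the shift of 0.66, at 0.85 to 1.23.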

How the data were processed

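RNA of luminal Venus High and Venus Low cells was measured on 1 array per population, from 250 ng of total RNA with integrity numbers above 9.4. Per probe set, the deposited values are log2 signals: the authors log2-transformed the signals and then normalized and centred each sample with BRB Array software. MAS5 is the tool in the submitters' processing notes. The sources used here do not give the reference of that normalization. The table has 0 columns of other samples.

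Gene names came from the platform annotation, where 22223 probe sets have 1 symbol, 602 have several and 6513 are not listed, with symbols updated through the RefSeq table of GRCm38.p6. Of 91 protein-coding symbols that fit the rule, 69 had a probe set in the table. A gene was counted as higher at 4-fold or more with a signal of at least 100 on the higher array. At the floor on 1 array, a difference is a lower bound. There was no test. Every member that reached 100 was named, and up to 3 dimmer ones per family, and Elk3, Sox4 and the genes at the floor were named after their values were seen. The members, lists and motifs were chosen with earlier results of these data known. Promoter windows and their sequences are from RefSeq. Settings tried besides were quantile normalization, median centring, the floor raised to 32 or 100, gene values as medians over probe sets, no suffixed (_x_at, _s_at, _a_at) probe sets, minimum signals of 50, 200 or none, and thresholds of 2-fold or 8-fold. Scripts (numpy 2.4.6, matplotlib 3.10.9 and pandas 2.3.3, under Python 3.11.15) were tested on simulated data. The number of arrays limits the precision.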

Additional observations from a re-analysis of the deposited data

How the results depend on the processing

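The count of 3 members higher by 4-fold or more was 2 or 3 under 10 of the 11 alternatives and 5 without a signal minimum, which added Etv4 and Spdef, both at the floor in Venus Low cells. Each of the 3 calls ended under at least 1 alternative. Klf2 was not counted after median centring, after quantile normalization or at 8-fold, Tbx3 was not counted when the median of its probe sets was used, since 3 of 5 were at the floor, and Myb has no probe set left without those ending in _x_at, _s_at or _a_at. The median log2 difference of the members, 0.42, was -0.24 after median centring, -0.27 after quantile normalization and 0 without a signal minimum, where 39 of 69 members are at the floor, and it lay within the pooled SD of 0.31 between probe sets under the other alternatives. That SD comes from a table without lower probe sets and may be too small. All 14 named differences moved by more than it under either scaling, 5 moved where medians over probe sets were taken (only Tbx3 by more than 0.46, the SD over 8 members) and 2, Tbx3 and Myb, moved with either floor. Over the 3847 genes that reached 100 the share at least 4-fold higher was 5.74% after median centring and 4.39% with the floor at 100, against 8.58% as deposited. No paired analysis was possible because there is 1 array per population, and no array could be left out.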
